A study of Mus musculus with 9 samples.

Results

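The genes described here are 34 mouse genes that mark macrophages and related myeloid cells, read in messenger RNA of whole lumbar dorsal root ganglia. They were taken by symbol, through the Ensembl identifiers of the count tables, and all 34 matched out of 55536 genes listed. All 34 also passed the filter on low counts, which left 17258 genes, so no member was lost and none was added by its response. They comprise 3 lineage genes, 3 genes of complement C1q, 6 Fc receptors and signalling adaptors, 10 surface proteins, 5 scavenger receptor or secreted-protein genes, 5 genes of lysosomes and microbial killing, and 2 genes of the actin cytoskeleton.

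Dorsal root ganglia hold the cell bodies of sensory neurons, each wrapped by satellite glia, and resident macrophages lie along these units, where they take up debris and opsonised material. Their survival depends on the receptor encoded by Csf1r, which binds the ligands CSF1 and IL-34, and their identity on the transcription factors PU.1 (Spi1) and IRF8. After nerve injury such macrophages are known to become more numerous, in part through proliferation and in part through entry of blood monocytes that carry CCR2.

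The study compared 5 libraries labelled icKO, from adult C57Bl6 mice with an inducible conditional knock-out of Prdm12, with 4 libraries labelled control, from adult C57Bl6 mice with a wild type genotype. Prdm12 encodes a regulator of transcription that in the ganglion is known from nociceptive neurons. Ganglia were taken 1 month after tamoxifen. The labels name neither the Cre driver nor the deleted exon, and do not say what alleles or injections the control mice had beyond the wild type genotype. Whether each library stands for its own animal is not stated either. A p-value here therefore reflects variation among libraries, some of which may be technical.

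Library totals lay between 19607740 and 29481589 counts. Values are given as CPM, counts scaled to a common library total with TMM factors, and the members together made up 0.0843% to 0.109% of the counts of a library. Prdm12 itself lay at 22.3 to 26.2 CPM in icKO and at 116 to 163 CPM in control (two-sided exact permutation p = 0.0159, the smallest this design allows). By Y-linked genes and Xist, icKO 1 and 2 and control 1 and 3 were male and the other 5 libraries female. The male control 3 had 98.5 CPM of Y-linked RNA against 146 to 166 CPM in the other male libraries, and the female icKO 4 had 3.64 CPM. Xist was at 1.06 CPM in control 3, beside 0.769 to 1.11 CPM in the other male libraries. In icKO 4 it was at 396 CPM, beside 311 to 372 CPM in the other female libraries. Whether control 3 or icKO 4, which hold most of the highest values described here, contain RNA of more than 1 animal or of other tissue was not tested. In ganglion tissue a lower level of these genes can mean fewer macrophages, less RNA in each, or less RNA from other cells that express them. The counts cannot tell these apart. The defining macrophage genes Csf1r, Aif1, Cd68, Adgre1 and C1qa had counts in all 9 libraries, and the lowest count of any member in any library was 35.

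PU.1, the product of Spi1, binds purine-rich DNA with the core GAGGAA and is known to act close to the start of many myeloid genes. RefSeq promoter windows on GRCm38.p6 were found for 25 of the 34 members, as 32 windows. Read over the 250 bases before each start and on both strands, GAGGAA occurred in 15 of these 32 windows, from 14 genes, against 23.3% of all 32851 windows in the table. The stretches below are the 100 bases before the start of 5 members in which the core lay 30 to 40 bases before it, followed by both starts of Lcp1, the member whose level differed between the groups, in which neither 250-base window held the core. Capitals mark GAGGAA or, where it lies on the other strand, its complement TTCCTC.
C1qb: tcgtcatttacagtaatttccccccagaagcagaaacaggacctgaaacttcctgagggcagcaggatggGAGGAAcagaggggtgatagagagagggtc
Cd53: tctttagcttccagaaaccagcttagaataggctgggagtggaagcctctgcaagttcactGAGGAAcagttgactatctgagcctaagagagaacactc
Laptm5: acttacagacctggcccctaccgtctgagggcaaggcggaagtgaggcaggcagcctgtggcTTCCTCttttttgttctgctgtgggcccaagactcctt
Mrc1: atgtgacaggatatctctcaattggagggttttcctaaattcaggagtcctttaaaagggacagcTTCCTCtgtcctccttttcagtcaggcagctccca
Trem2: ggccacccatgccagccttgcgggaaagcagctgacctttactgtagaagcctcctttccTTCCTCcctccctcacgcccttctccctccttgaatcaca
Lcp1, upstream start: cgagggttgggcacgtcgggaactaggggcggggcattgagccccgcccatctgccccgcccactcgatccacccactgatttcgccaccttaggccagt
Lcp1, downstream start: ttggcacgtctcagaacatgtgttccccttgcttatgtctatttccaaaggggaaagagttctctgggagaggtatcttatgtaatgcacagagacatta

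These stretches lie at chr4:136886201-136886300 (C1qb, minus strand), chr3:106790150-106790249 (Cd53, minus), chr4:130913216-130913315 (Laptm5, plus), chr2:14229314-14229413 (Mrc1, plus), chr17:48346301-48346400 (Trem2, plus), chr14:75131023-75131122 and chr14:75136325-75136424 (Lcp1, plus). Mrc1 held 3 matches in its 250 bases and the other 4 of the 5 held 1 each. The longer form GAGGAAGT, which contains the core, occurred in 2 of the 32 windows (C1qc and Pf4) against 2.44% of all windows, and TATAAA, the letters of a TATA box, in 5 of the 32 against 12.4%. A match is a string of letters in the window and was not read as a bound site.

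Per kilobase of exon, the scale on which genes can be set against one another, the members of control ganglia spanned a wide range. Lgmn, a lysosomal endopeptidase, was highest at 169 ± 32.6 CPM per kb (SD, n = 4), and Lyz2, the myeloid lysozyme, followed at 59.4 ± 11.5 CPM per kb. C1qa and C1qb, which encode chains of the complement component C1q, came next at 24.9 ± 6.90 and 24.9 ± 7.53 CPM per kb, and their difference was far inside the spread. Lcp1, the actin-bundling protein L-plastin, lay at 21.3 ± 1.79 CPM per kb and did not differ from C1qa and C1qb beyond their spread. Csf1r lay in the middle of the order at 4.13 ± 0.546 CPM per kb. At the bottom were Siglec1, a sialic acid receptor of some tissue macrophages, at 0.237 ± 0.0257 CPM per kb, and Ptprc (CD45), present on all leukocytes, at 0.359 ± 0.186 CPM per kb. Lengths are of all annotated exons merged, 18313 bases for Ptprc, so genes with long alternative exons are understated. Lgmn and Lcp1 together took 47.3% to 73.2% of all member counts in a library, and sums over members are therefore also given without them.

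**Figure D1:**
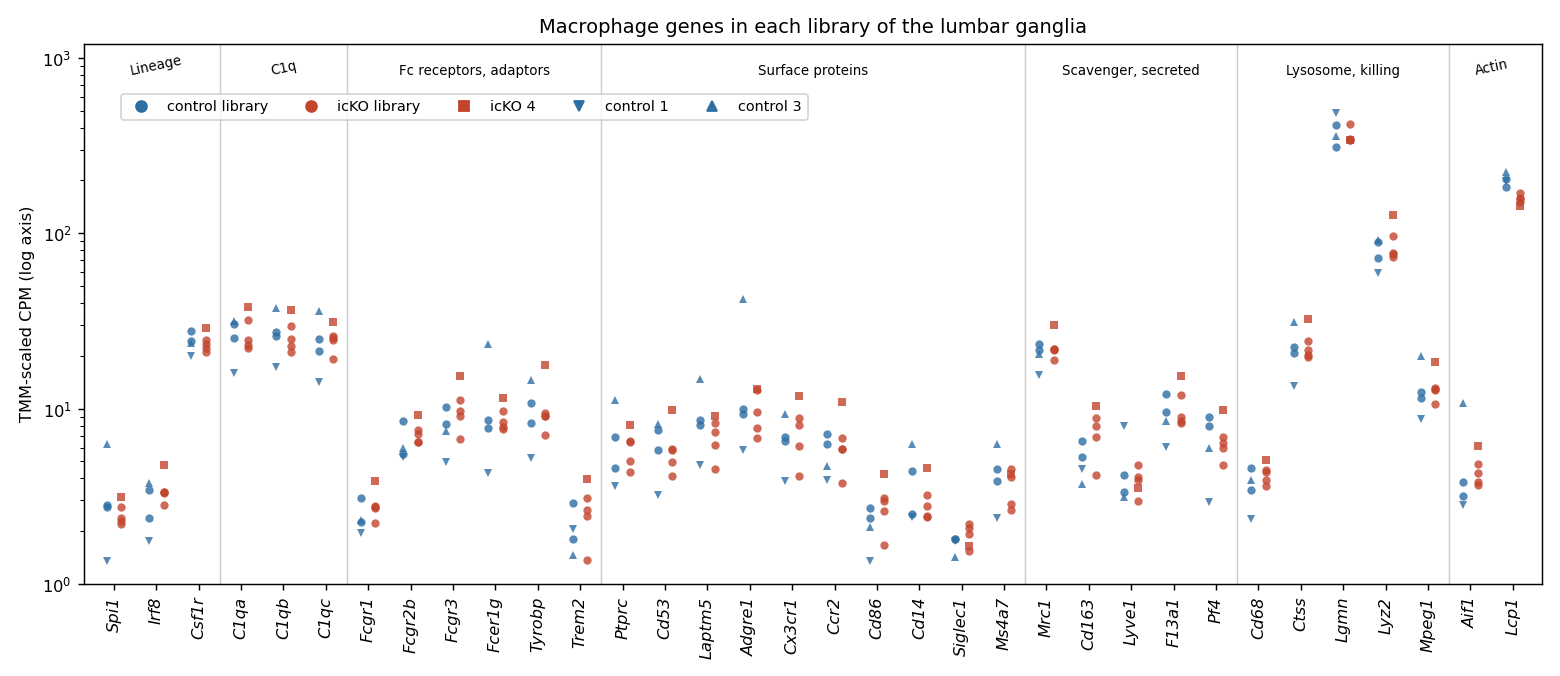
TMM-scaled CPM on a log axis (vertical) of each of the 34 genes (horizontal, by role), 1 point per library, control in blue (n = 4) and icKO in red (n = 5), with icKO 4, control 1 and control 3 drawn with their own markers. Lcp1 is the gene whose groups do not overlap, and for Adgre1 control 3 stands at 42.0 CPM above all other libraries.

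Of the 34 macrophage genes, 1 fell in icKO and none rose at an adjusted p under 0.05 in edgeR's quasi-likelihood test, adjusted by Benjamini-Hochberg over all tested genes. Among all 17258 genes 0.852% were called in either direction and 0.377% were called lower. At an unadjusted p under 0.05 there were 2 members, Lcp1 and Cd163, a smaller share than the 11.1% of all genes. Groups that did not overlap were seen for 1 member, Lcp1, while 4.5% of all tested genes had such groups. The log2 fold change (icKO minus control) was above 0 for 21 members and below 0 for 13, with a median of 0.09 beside 0.00 for all genes. DESeq2 likewise placed 21 members above 0.

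Single macrophage genes varied more between libraries of a group than most genes did. The median biological coefficient of variation, the spread between libraries of a group beyond counting noise, was 0.238 for the members and 0.104 for all genes. Lgmn and Lcp1 aside, all 32 members exceeded the median of 0.0971 of the 10991 genes in the same range of 1.79 to 84.0 CPM. The 95% intervals of the log2 fold changes had total widths from 0.30 in total width for Lcp1 and 0.46 for Csf1r to 2.03 for Adgre1.

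**Figure D2:**
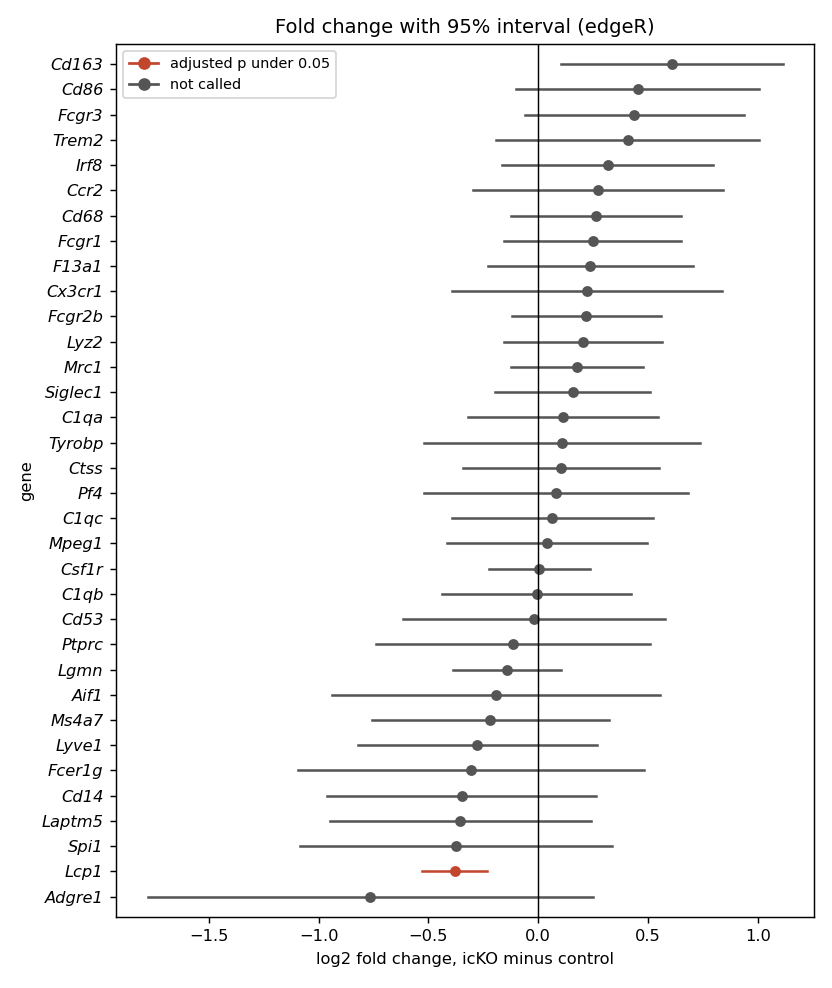
Log2 fold change, icKO minus control (horizontal), of each of the 34 genes (vertical, ordered by value), with points for the estimate and bars for its 95% interval from edgeR over 9 libraries. The intervals of Lcp1, in red, and of Cd163 do not reach 0, and only Lcp1 passed the adjusted threshold.

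Lcp1 encodes L-plastin, which bundles actin filaments and is best known from leukocytes. It was measured at 150.4, 159, 169, 142 and 156 CPM in icKO 1 to 5 and at 199.6, 203, 224 and 183 CPM in control 1 to 4. All 5 icKO libraries lay below all 4 control libraries. The means were 155 ± 9.96 CPM (SD, n = 5) and 202 ± 17.0 CPM (n = 4), which gave a log2 fold change of -0.38 with an SE of 0.07 (adjusted p = 0.0229). The direction held whichever library was left out, but the adjusted p rose to 0.0826 without icKO 1, 0.0545 without icKO 4, 0.0719 without icKO 5 and 0.0842 without control 3. Of its exon bases, 5.58% overlap 2 genes on the opposite strand (Gm15628 and Gm15629), and 3.34% of its 50-base stretches recur in Gm6201 or Gm7823. Whether counting used the strand is not given in the sources used here. Across libraries Lcp1 did not vary with the other members (r = -0.02 with their mean). Which cells of the ganglion its RNA came from was not tested.

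Aif1, which encodes the actin-binding protein IBA1 used to stain macrophages, did not follow Lcp1. It was at 3.84, 4.30, 4.81, 6.09 and 3.67 CPM in icKO 1 to 5 and at 2.82, 3.80, 10.8 and 3.20 CPM in control 1 to 4. Control 3 was apart from the other control libraries, and these overlapped with icKO. The log2 fold change was -0.19 (SE 0.34, adjusted p = 0.894), and it was 0.48 without control 3.

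The lineage genes gave no call. Csf1r, the receptor for the macrophage growth factors, was at 21.0, 22.0, 24.6, 28.8 and 23.2 CPM in icKO 1 to 5. In control 1 to 4 it was at 19.9, 27.6, 23.7 and 24.3 CPM, so that the groups overlapped across nearly their whole ranges. Its log2 fold change was 0.00, with a 95% interval from -0.23 to 0.23, one of the tightest among the members. Of its exon bases, 15.1% overlap Hmgxb3 on the opposite strand, which makes its count uncertain. Spi1, encoding PU.1, was at 2.21 to 3.13 CPM in icKO and at 1.36, 2.74, 6.27 and 2.83 CPM in control 1 to 4. Its log2 fold change was -0.38 (SE 0.33, adjusted p = 0.761), and without control 3 it was 0.17. Irf8, the partner factor of PU.1 in macrophages, was at 2.83 to 4.77 CPM in icKO and 1.76 to 3.75 CPM in control, with a log2 fold change of 0.32 (adjusted p = 0.682, SE 0.22).

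The 3 chains of C1q, the recognition unit of classical complement, are encoded side by side on chromosome 4 and made mainly by macrophages. C1qa was at 23.2, 22.3, 32.0, 37.9 and 24.5 CPM in icKO 1 to 5 and at 16.0, 30.5, 31.8 and 25.3 CPM in control 1 to 4. C1qb was at 22.7, 20.9, 29.6, 36.4 and 25.1 CPM in icKO 1 to 5 and at 17.3, 27.4, 37.4 and 26.1 CPM in control 1 to 4. C1qc was at 24.6, 19.1, 25.2, 31.2 and 26.1 CPM in icKO 1 to 5 and at 14.2, 25.0, 36.0 and 21.2 CPM in control 1 to 4. For each chain control 1 was lowest and either icKO 4 or control 3 highest, and the groups overlapped. The log2 fold changes were 0.11 for C1qa (SE 0.20), -0.01 for C1qb (SE 0.20) and 0.06 for C1qc (SE 0.21), none of which passed the test.

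The Fc receptors bind antibody-coated material. The activating receptors signal through the ITAM adaptor Fcer1g, the inhibitory Fcgr2b through a motif of its own, and Tyrobp is the ITAM adaptor of Trem2 and other receptors. Fcgr3, the low-affinity activating receptor, was at 9.12, 6.74, 11.3, 15.3 and 9.71 CPM in icKO 1 to 5 and at 4.99, 10.3, 7.47 and 8.14 CPM in control 1 to 4. Its log2 fold change was 0.44 (SE 0.23, adjusted p = 0.533). The high-affinity receptor Fcgr1, at 2.22 to 3.87 CPM in icKO and 1.94 to 3.10 CPM in control, and the inhibitory receptor Fcgr2b, at 6.43 to 9.21 CPM and 5.32 to 8.49 CPM, had log2 fold changes of 0.25 and 0.22. Of the 50-base stretches of Fcgr3, 9.58% recur in Fcgr2b, and of those of Fcgr2b 4.38% recur in Fcgr3 or Gm4117, so the split of reads between these genes is uncertain. Among the adaptors, Fcer1g was at 7.63 to 11.4 CPM in icKO and at 4.33, 7.80, 23.5 and 8.61 CPM in control 1 to 4, with control 3 alone high. Its log2 fold change was -0.31 (SE 0.36, adjusted p = 0.833), and 0.40 without control 3. Tyrobp (DAP12) was at 9.05, 7.09, 9.51, 17.6 and 9.12 CPM in icKO 1 to 5 and at 5.24 to 14.5 CPM in control, with a log2 fold change of 0.11 (SE 0.29). Trem2, the lipid-sensing receptor that signals through Tyrobp, was at 1.38 to 3.95 CPM in icKO and at 1.46 to 2.89 CPM in control, with a log2 fold change of 0.41 (adjusted p = 0.665, SE 0.28).

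Among the surface proteins the widest spread belonged to Adgre1, the F4/80 antigen by which mouse macrophages are commonly identified. It was at 7.77, 6.82, 12.8, 12.9 and 9.52 CPM in icKO 1 to 5 and at 5.83, 10, 42.0 and 9.33 CPM in control 1 to 4. Apart from control 3 the libraries of the groups overlapped. The log2 fold change of -0.76 (SE 0.47, adjusted p = 0.613) became 0.26 without control 3. Ptprc, at 4.34 to 8.10 CPM in icKO, and Laptm5, a lysosomal membrane protein of blood cells, at 4.53 to 9.13 CPM in icKO, also had their highest values in control 3, at 11.3 and 14.8 CPM. Cd14, the co-receptor for bacterial lipopolysaccharide, and Ms4a7, a tetraspan protein of macrophages, did so as well, at 6.27 and 6.31 CPM. The chemokine receptor genes Cx3cr1 and Ccr2, which tell resident from monocyte-derived cells in many tissues, were instead highest in icKO 4, at 11.8 and 10.9 CPM. Their log2 fold changes were 0.22 (SE 0.28) and 0.27 (SE 0.26). Cd86, the costimulatory ligand, had 0.45 (SE 0.26, adjusted p = 0.574), Cd53, a leukocyte tetraspanin, -0.02 (SE 0.27), and Siglec1 0.16 (SE 0.16), and none of the 10 surface genes was called.

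The scavenger receptor Cd163, which clears haemoglobin bound to haptoglobin, had the largest positive log2 fold change of the members. It was at 6.90, 4.18, 7.98, 10.4 and 8.84 CPM in icKO 1 to 5 and at 4.55, 6.53, 3.72 and 5.31 CPM in control 1 to 4. In icKO 4 of 5 libraries exceeded every control library, and icKO 2 lay within the control range. The log2 fold change was 0.61 (SE 0.23), and it did not pass the test (adjusted p = 0.326). Mrc1, the mannose receptor CD206, was at 21.9, 18.9, 21.5, 29.9 and 22.0 CPM in icKO 1 to 5 and at 15.5, 23.5, 20.4 and 21.6 CPM in control 1 to 4, with a log2 fold change of 0.18 (adjusted p = 0.722, SE 0.14). Lyve1, a hyaluronan receptor of perivascular macrophages and of lymphatic vessels, had the lowest r with the mean of the other members: it was highest in control 1, at 7.92 CPM, and at 2.96 to 4.77 CPM in every other library. F13a1, the A chain of coagulation factor XIII, and Pf4, a chemokine of platelets and resident macrophages, gave 0.24 (SE 0.22) and 0.08 (SE 0.28) on the log2 fold change scale.

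The lysosomal genes were likewise uncalled. Lyz2 was at 77.1, 73.6, 95.9, 126.5 and 76.4 CPM in icKO 1 to 5 and at 59.2, 89.0, 91.4 and 72.8 CPM in control 1 to 4, with a log2 fold change of 0.20 (adjusted p = 0.738, SE 0.17). Its neighbour Lyz1 shares 15.4% of its 50-base stretches. Lgmn was at 338, 418, 343, 342 and 341 CPM in icKO 1 to 5 and at 486, 415, 359 and 311 CPM in control 1 to 4, with control 1 highest and control 4 lowest of all 9 libraries. Its log2 fold change was -0.14 (SE 0.11, adjusted p = 0.730). Ctss, the cathepsin that trims the invariant chain of MHC class II, had 0.10 (SE 0.21), Cd68, a glycoprotein of late endosomes, 0.26 (SE 0.18), and Mpeg1, which encodes the pore-forming perforin-2, 0.04 (SE 0.21).

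The members varied together across libraries. In log2 CPM centred within each group, the median Pearson r over the 561 pairs of members was 0.594, and 446 pairs were positive, while the median over pairs of all tested genes was 0.00. The points are 9 libraries, and all genes of a library share its dissection and sequencing depth. The values are a description. For 28 members r with the mean of the other members was at least 0.6, which held for 9.46% of all other tested genes, and for 15 it was at least 0.8, against 2.28%. The closest to the common pattern were C1qa (r = 0.978), C1qb (0.975), Ctss (0.952) and Lyz2 (0.952). Without control 1 and icKO 4, the libraries farthest from the median, these were still 0.955, 0.956, 0.885 and 0.932, while F13a1 went from 0.634 to 0.096 and Ccr2 from 0.602 to 0.160.

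**Figure D3:**
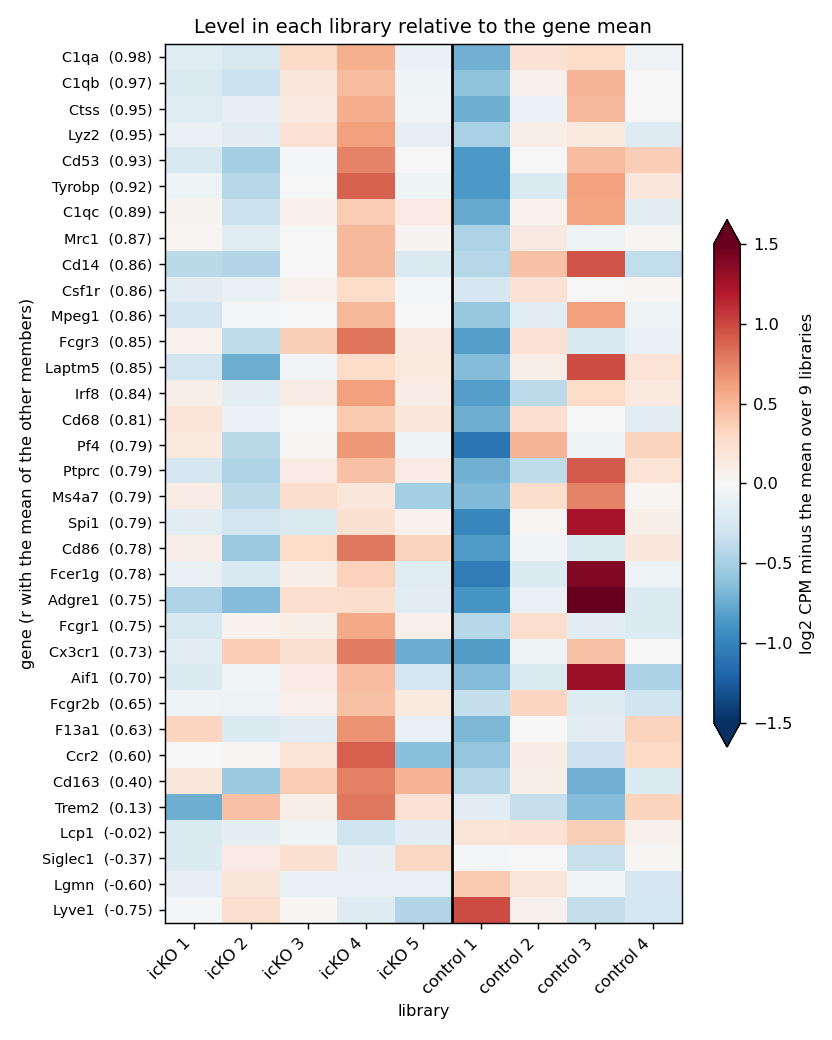
Log2 CPM of each gene minus its mean over the 9 libraries (colour), for libraries (horizontal) and genes (vertical, ordered by r with the mean of the other members, given in parentheses), with a black line between icKO and control. Control 1 is low and icKO 4 high for most genes, control 3 is high for a subset led by Adgre1, and Lyve1 and Lgmn run the other way.

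A group of 5 members stood outside the common pattern, with r below 0.2: Trem2 (0.13), Lcp1 (-0.02), Siglec1 (-0.37), Lgmn (-0.60) and Lyve1 (-0.75). The remaining 29 had a median pair r of 0.714. Lyve1 and Lgmn went with each other (r = 0.85), and both had their highest value in control 1, where 25 of the 34 members were lowest. Trem2 and its adaptor Tyrobp had r = 0.165, a value that was 0.476 without control 3 and -0.335 without the 2 libraries farthest from the median of Trem2. F13a1 and Pf4 went together (r = 0.878), as did C1qa and C1qb (r = 0.955).

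Libraries rather than groups marked the extremes. icKO 4 held the highest value for 19 members and control 3 for 12, and no other library did so for more than 2. Summed without Lgmn and Lcp1, the members were at 348, 322, 410, 538 and 361 CPM in icKO 1 to 5. In control 1 to 4 the same sum was 251, 392, 499 and 363 CPM, so the control group alone spanned a range that holds 4 of the 5 icKO libraries. The number of members above 0 on the log2 scale therefore moved with single libraries: it was 30 without control 3 (median 0.24), 15 without control 1 (median -0.07) and 14 without icKO 4 (median -0.05).

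Control 3 was high for one set of members and not for another. Adgre1, Fcer1g, Aif1 and Spi1 were high there, and Fcer1g and Adgre1 had r = 0.966 over the 9 libraries. Csf1r, at 23.7 CPM, was in the middle of the libraries there, Mrc1, at 20.4 CPM, was below it, and Cd163, at 3.72 CPM, and Siglec1, at 1.421 CPM, had their lowest values of all 9 libraries. Csf1r and Mrc1 had r = 0.91. Csf1r and Adgre1, both used as macrophage markers, had r = 0.393, which was 0.883 without control 3 and 0.0838 without the 2 libraries farthest from the median of Csf1r.

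**Figure D4:**
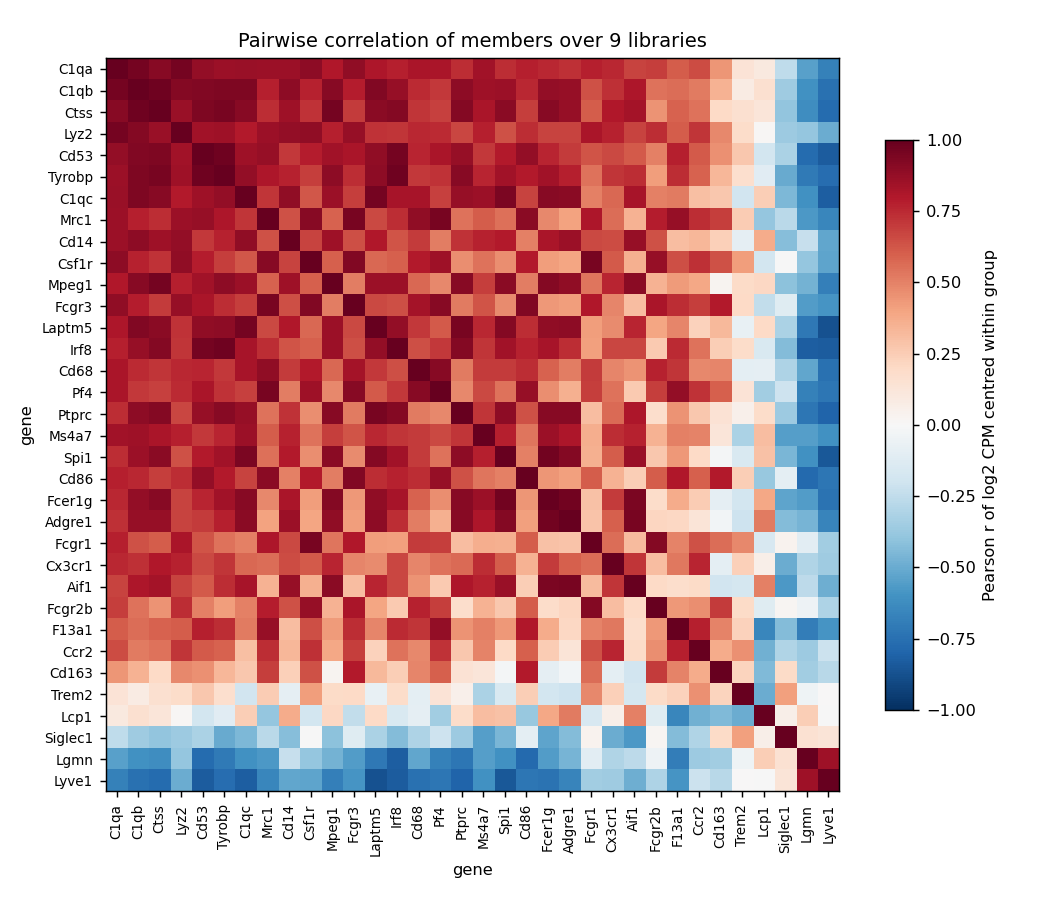
Pearson r (colour) of log2 CPM centred within group, over 9 libraries, for each pair of the 34 genes, ordered on both axes by r with the mean of the other members. A block of positive values covers most genes from C1qa to Ccr2, and Siglec1, Lgmn and Lyve1 form negative bands against it.

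Genes around the macrophage pathway that are no members were read in 9 lists of 153 genes, of which 135 were tested. None was called, with edgeR's quasi-likelihood test, in either direction, and DESeq2 called none of them. In edgeR's test 12 had an unadjusted p under 0.05, 6 of them higher in icKO, beside 11.1% of all tested genes. The growth factors for Csf1r were present: Csf1 was at 12.4 to 19.8 CPM in icKO and 15.5 to 22.3 CPM in control (log2 fold change -0.29, adjusted p = 0.471), and Il34 at 19.4 to 22.6 CPM and 18.1 to 25.6 CPM (-0.10, adjusted p = 0.778). Of the recruiting chemokines, Ccl12 and Ccl8 had the smallest adjusted p, 0.263 and 0.284, with log2 fold changes of 0.59 and 1.21 at means of 2.54 and 1.84 CPM in icKO. Of the monocyte genes, the lectin Chil3 had 1.03 (SE 0.37, adjusted p = 0.288) and fibronectin Fn1 0.90 (SE 0.35, adjusted p = 0.353). The Fn1 value rests on icKO 3 and icKO 4, at 82.8 and 60.1 CPM. Its other icKO libraries lay at 23.2 to 26.9 CPM and control at 18.3 to 26.4 CPM. Of the other macrophage genes, the transcription factor Maf had -0.25 (SE 0.07, adjusted p = 0.146) and the sialic acid receptor Cd33 0.42 (SE 0.13, adjusted p = 0.207).

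A list of 18 genes joined ITAM signalling genes, such as Syk and Plcg2, with general leukocyte genes, such as Cd52, Rac2 and Coro1a. Control 3 held the highest value for 15 of the 18. Their summed level was 310 CPM in control 3 and 195 to 238 CPM elsewhere. Coro1a, the largest part of each sum, was at 135 to 171 CPM over the libraries and at 159 CPM in control 3. Pik3cg and Pik3ap1, a catalytic subunit and an adaptor of PI3 kinase, were at 7.87 and 13.9 CPM in control 3 and had log2 fold changes of -0.72 and -0.73 (adjusted p = 0.490 and 0.543). The genes of MHC class II were low in that library: their sum was 229.6 CPM in control 3, near the lowest value of 218.5 CPM in control 1, and 304 to 450 CPM elsewhere. H2-Aa, an alpha chain, had a log2 fold change of 0.35 (adjusted p = 0.594, SE 0.21).

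Markers of other cells moved with some of these libraries. The summed level of 10 fibroblast genes was 1594 CPM in control 1, the lowest, and 4100 CPM in icKO 4, the highest, and 2134 to 3521 CPM in the other libraries. Of the 34 members, 25 were lowest in control 1 and 19 highest in icKO 4. The neutrophil sum was 29.5 to 63.5 CPM in icKO and 22.4 to 34.3 CPM in control, also highest in icKO 4, and lymphocyte genes summed to 5.21 to 10.3 CPM. Neuron genes summed to 16430 CPM in icKO 4, the lowest, and 20230 CPM in control 1, the highest. Their part in the pattern of the macrophage genes was not tested. In 12 such lists, edgeR's quasi-likelihood test called none of 97 tested genes. Of these, 13 had an unadjusted p under 0.05, beside 11.1% of all tested genes. DESeq2 called 5, the neutrophil genes Camp, Ngp, S100a8 and S100a9 and the neuronal Syt1, beside 427 of the 36684 genes it tested. In edgeR's test, 6 of the 10 tested neutrophil genes were higher in icKO at an unadjusted p under 0.05, and 1 was lower. All 7 erythroid genes had log2 fold changes above 0, none with an unadjusted p under 0.05.

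**Figure D5:**
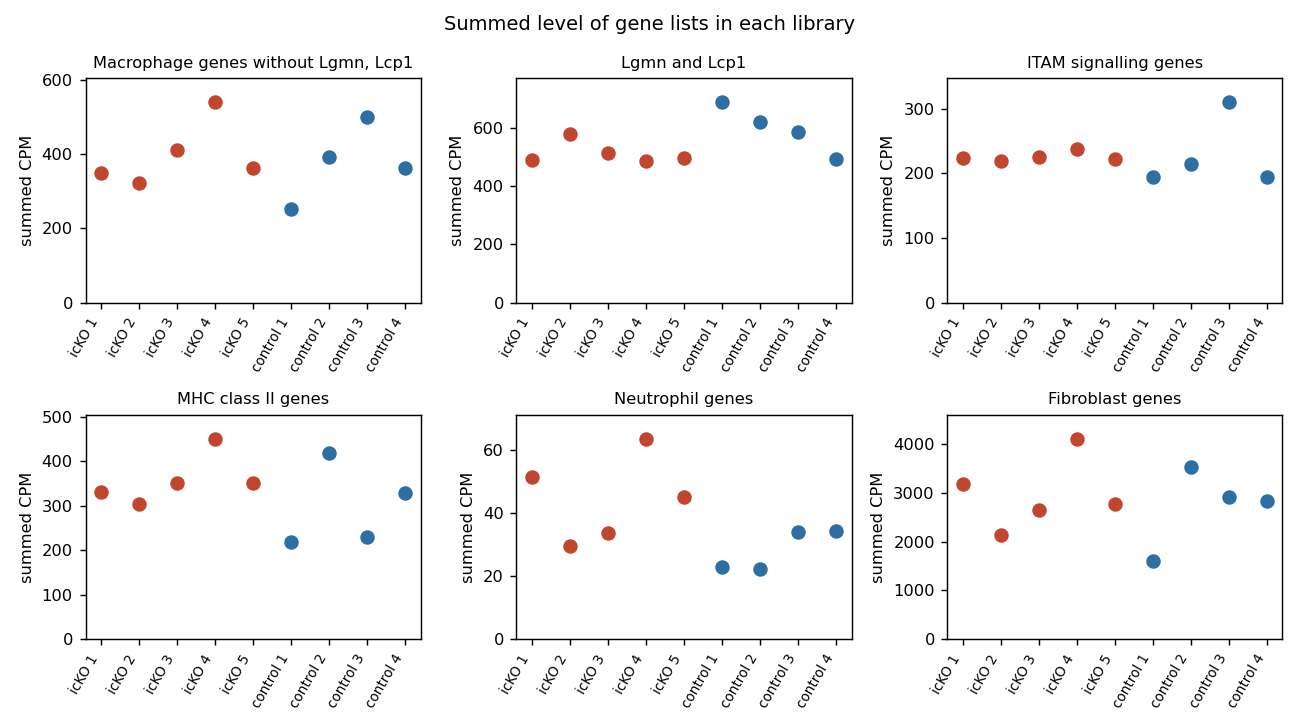
Summed TMM-scaled CPM (vertical, from 0) of 6 sets of genes in each library (horizontal), icKO in red and control in blue, 1 point per library. The macrophage genes without Lgmn and Lcp1 and the fibroblast genes are both lowest in control 1 and highest in icKO 4. The set titled ITAM signalling genes, which also holds general leukocyte genes, stands out in control 3.

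Genes elsewhere in the genome whose levels were most like the members' mean were sought among 13666 other protein-coding genes with a mean of at least 1 CPM, over the same 9 libraries. The highest r belonged to Ptpn18, a tyrosine phosphatase, at 0.986, followed by Smagp at 0.983 and the homeobox factor Hhex at 0.972. Sh3d21, Fbn1, Fap, Rab34, D930048N14Rik, Cdkn2b and Itm2a made up the 10, down to 0.934. Fbn1 (fibrillin 1) at 0.945 and Fap (fibroblast activation protein) at 0.944 are products of fibroblasts. The lowest r was that of Enc1, an actin-binding protein of neurons, at -0.987, followed by Gpd1 at -0.969. Enc1 itself fell in icKO (log2 fold change -0.66, adjusted p = 0.0252 in edgeR's quasi-likelihood test), a call lost without icKO 1, 3, 4 or 5 or control 1 or 4 (adjusted p up to 0.0762) and in female (0.220) or male libraries alone (0.433).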

How the data were processed

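For each library the authors deposited a table of raw counts per gene. The submitters' processing notes name bcl2fastq 2.20.0.422, the aligner STAR 2.5.2a, the read counter featureCounts 1.5.0-p1 and the genome build mm10. The annotation release and the settings for strand and multiply mapped reads were not given in the sources used here.

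All statistics were computed from these counts. All 55536 identifiers matched a GENCODE annotation on the same build, which gave symbols, positions and exon lengths. Genes were kept with filterByExpr (minimum count 10, minimum total 15) and tested with edgeR 4.0.16 in R 4.3.3 (TMM factors, quasi-likelihood test, Benjamini-Hochberg over 17258 genes, threshold 0.05). Log2 CPM used a prior count of 2. A floor of 3 counts equals 0.102 to 0.153 CPM and covers counting error only. DESeq2 1.42.0, other scalings, other filters, a replicate block, sex as a covariate and leaving out each library were the alternatives. The code was tested on simulated data. Pairs of replicates differed beyond sampling noise (chi-square divided by its degrees of freedom at least 6.03).

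The members and lists were chosen with earlier results of these data known. Named were all members, Prdm12, up to 2 genes per other list with the smallest adjusted p, further list genes where a small count or a background value required it, and the 10 most and 5 least like genes. A planned permutation test of the members' sum against other list sums was not run, and the sums are given side by side.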

Additional observations from a re-analysis of the deposited data

Results flagged for a closer look

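In 68 groups (34 genes in icKO and in control), a library farther from the others than Dixon's 95% criterion allows was found in 7, where chance alone gives about 1 in 20. In control 3, Adgre1 was at 42.0 CPM against 5.83 to 10 CPM in the other control libraries, Aif1 was at 10.8 CPM against 2.82 to 3.80 CPM, and Siglec1 was at 1.421 CPM against 1.76 to 1.80 CPM. In icKO 4, Irf8 was at 4.77 CPM against 2.83 to 3.36 CPM, Tyrobp was at 17.6 CPM against 7.09 to 9.51 CPM, and Mrc1 was at 29.9 CPM against 18.9 to 22.0 CPM. In icKO 2, Lgmn was at 418 CPM against 338 to 343 CPM. In edgeR's quasi-likelihood test of the interaction with sex, with 2 or 3 libraries of each sex in a group, no member passed (smallest adjusted p = 0.9999). With so few libraries this does not show that the sexes responded alike. The log2 fold change of Adgre1 was 0.28 in female and -1.71 in male libraries. The male value rests on control 3: the other male control library, control 1, was at 5.83 CPM, below icKO 1 and 2 at 7.77 and 6.82 CPM.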

How the results depend on the processing

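Under each alternative run Lcp1 kept its direction, and no member was called higher. The members called, 1 in all and 1 lower, became 0 under the replicate block of the 8 libraries numbered 1 to 4 (Lcp1 at -0.37, adjusted p = 0.0668; Enc1 was lost too, 0.0896), in female libraries alone (-0.31, 0.691) and in male libraries alone (-0.44, 0.227), the last 2 settings being chosen after seeing the data and resting on fewer libraries. Over single libraries left out these counts ranged from 0 to 1. Whether the replicate numbers pair the libraries is not stated. Same-numbered deviations had correlations of 0.103, -0.175, -0.0441 and 0.17, inside the range of -0.324 to 0.412 for differently numbered libraries. These values show no shared effect but cannot settle whether libraries were paired. Calls over all genes numbered 147, and 48 with the block, 393 with no count filter, 427 with DESeq2, 20 in female and 3 in male libraries, and 78, 89, 94, 95 and 92 without icKO 1, 3, 4 or 5 or control 3. Over the lists of other genes, 0 calls became 6 with no count filter (Camp, Fn1, Ngp, S100a8, S100a9 and Syt1) and 5 with DESeq2, and ranged from 0 to 2 over single libraries left out. The median pair r of members was 0.594, and 0.714 without the 5 members below 0.2. Over single libraries left out it ranged from 0.401 (without control 1) to 0.715 (without control 3). In male libraries it was 0.876, but with 2 libraries per group r is poorly determined. The male value was not read as closer covariation. Prdm12 kept its call throughout.

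The log2 fold changes of 17 uncalled members changed sign when single libraries were left out. Their ranges were -0.64 to 0.17 for Spi1, -0.078 to 0.083 for Csf1r, -0.068 to 0.24 for C1qa, -0.18 to 0.20 for C1qb, -0.13 to 0.34 for C1qc, -0.58 to 0.40 for Fcer1g, -0.16 to 0.39 for Tyrobp, -0.32 to 0.30 for Ptprc, -0.25 to 0.16 for Cd53, -0.57 to 0.0047 for Laptm5, -1.05 to 0.26 for Adgre1, -0.43 to 0.049 for Ms4a7, -0.42 to 0.11 for Lyve1, -0.17 to 0.29 for Pf4, -0.078 to 0.34 for Ctss, -0.12 to 0.33 for Mpeg1 and -0.40 to 0.48 for Aif1. Under other settings 14 changed sign. C1qb was at 0.0057 with library size alone, 0.0033 with no count filter and 0.040 with the replicate block, where Cd53 was at 0.0012 and Aif1 at 0.064. Csf1r was at -0.022 with sex as a covariate. Female libraries alone gave -0.025 for Csf1r, 0.18 for C1qb, 0.24 for Fcer1g, 0.31 for Ptprc, 0.094 for Cd53, 0.28 for Adgre1, 0.0093 for Cd14, -0.20 for Pf4 and 0.47 for Aif1. Male libraries alone gave -0.0083 for Csf1r, -0.064 for C1qa, -0.19 for C1qc, -0.28 for Tyrobp, -0.16 for Ctss and -0.28 for Mpeg1. The cause of these changes was not tested.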

Other observations

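The remaining lists around the macrophage pathway held no called gene with edgeR's quasi-likelihood test. Of 17 inflammatory genes 10 were tested, and those left out for low counts included Tnf, at 0 to 0.165 CPM, and Nos2, at 0.0348 to 0.271 CPM. Ccl5, a chemokine of T cells and macrophages, was at 0.620 to 1.56 CPM in icKO and 0.513 to 0.735 CPM in control, with a log2 fold change of 0.85 (adjusted p = 0.211, SE 0.27), and Il18 had 0.21 (SE 0.11, adjusted p = 0.509). Of 9 tested genes of cell division 7 were above 0, and Mki67 had means of 4.56 CPM (icKO) and 3.74 CPM (control), 0.29 apart as log2 fold change (adjusted p = 0.613). Of the genes listed for dendritic cells, Flt3 was at -0.26 (SE 0.08, adjusted p = 0.185) and Cd209a at -0.45 (SE 0.25, adjusted p = 0.567). Mean control levels were 37.1 CPM for Flt3 and 17.4 CPM for Zbtb46. The other genes of that list had control means from 0.126 CPM (Ccr7) to 1.23 CPM (Clec9a). Whether the RNA of Flt3 and Zbtb46 came from dendritic cells was not tested. Of 11 tested genes of other complement components, C4b was at 0.22 (SE 0.13, adjusted p = 0.574). Among microglial genes, P2ry12 was at 5.33 to 8.44 CPM in icKO and 6.93 to 8.57 CPM in control, and Sall1 was at most 0.510 CPM.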
